A study of Serinus canaria and Ploceus bicolor and Uraeginthus cyanocephalus with 155 samples.

Results

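The 80 transcripts described here were those most lowered in the entopallium of canaries carrying a testosterone implant, relative to canaries without one, in both sexes. For each of 26061 transcripts on the array, the mean log2 level of implanted birds minus that of birds without an implant was taken within females and within males, and the 80 transcripts whose higher (less negative) difference was lowest were kept. The members were thus selected on the levels of 23 entopallium arrays, and the values of those arrays are given as a description, without a test. The series holds 155 arrays of 3 songbird species, with 1 bird and 1 brain region on each array and 6 arrays in each group apart from 5 for the entopallium of non-breeding females without an implant. Custom exon arrays with zebra finch probes were used, and each value is a normalised log2 transcript level.

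All birds were adults. The canaries (Serinus canaria) comprised non-breeding singing males and females carrying a testosterone implant, non-breeding females that sang spontaneously without one, breeding singing males, breeding females that did not sing, and non-breeding males and females that neither sang nor carried an implant. Breeding canaries were kept in pairs on long days. Non-breeding canaries were kept on short days and, by the paper, alone in sound-attenuated boxes while their song was monitored. Day length, housing, breeding state and, in males, singing can therefore not be told apart. Likewise, all implanted birds sang, and their controls did not. Among breeding canaries the males sang and the females did not, so that sex and singing cannot be told apart between them. Singing males and females of the forest weaver (Ploceus bicolor) and the blue-capped cordon-bleu (Uraeginthus cyanocephalus), both breeding and without treatment, were also measured. The forest weavers were wild pairs caught in their territories, although their labels give long days, and the cordon-bleus were bred in captivity on long days. HVC and entopallium were taken in every group, and the molecular layer of the cerebellum in breeding and in non-breeding, non-implanted canaries of both sexes. By their labels, HVC and entopallium arrays came largely from the same canaries, with 5 or 6 shared birds in each canary group apart from breeding males, whose regions shared 0 of 6 birds.

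The entopallium is the main forebrain target of the tectofugal visual pathway of birds. It lies outside the song control system and was a non-song region of the study. HVC is a premotor nucleus of the song control system. It controls the timing of song and is rich in receptors for sex steroids. Testosterone acts on the brain through the androgen receptor and, after conversion to oestradiol by aromatase, through oestrogen receptors, and in canaries it can induce song in both sexes.

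No gene names accompany the transcript identifiers in the files, and a canary reference of 17915 genes held 0 of them. Gene identities, chromosomes, including the Z chromosome, and markers of cell types or regions were therefore not analysed here, and transcripts are given by identifier. Of the 80 members, 51 were predicted RefSeq mRNAs, 25 were Ensembl zebra finch transcripts and 4 were predicted RefSeq non-coding RNAs. Predicted mRNAs made up 63.8% of the members and 40.2% of all transcripts. Most members lay at the low end of the array. Their median percentile of mean level over the canary entopallium was 17.2, with 48 of 80 among the lowest 25% of transcripts and 9 among the highest 25%. The median standard error of a member's log2 fold change was 0.20 in the comparison of breeding male and female entopallium, against 0.07 over all transcripts.

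In the arrays that chose them, the members were lower with testosterone by a median of -0.70 on the log2 scale in females (range -2.20 to -0.50) and by -0.75 in males (range -2.84 to -0.50). Over all transcripts the medians were 0.01 in females and -0.01 in males, and 8062 transcripts (30.9%) were lower with testosterone in both sexes. In 36 members every implanted female lay below every female without an implant, a pattern seen in 8.56% of all transcripts. The count was also 36 in males, against 4.90% of all transcripts. At the edge of the list, ENSTGUT00000012910 was just inside with a rule value of -0.50019, and XM_002194246 was just outside with -0.49983, so the list ends within a continuous range of values. As bulk tissue was used, fewer cells of one type and less RNA per cell cannot be told apart in this or any other difference given here.

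XM_002192196 had the lowest rule value, -1.62. Its levels in female entopallium were 4.96, 5.50 and 6.004 (lowest, median and highest) with testosterone, against 6.07, 7.21, 7.33, 7.44 and 7.67 in the 5 females without an implant. In males they were 4.06, 4.89 and 5.72 with testosterone and 6.59, 7.66 and 7.99 without. The groups did not overlap in either sex. XM_002193219, with a rule value of -1.43, was among the well expressed members. It had 7.79, 8.01 and 8.34 in implanted females, against 9.29, 9.41, 9.50, 9.63 and 9.77 in females without an implant. In males the values were 7.47, 8.64 and 8.93 with testosterone and 9.39, 9.92 and 10.21 without.

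**Figure D1:**
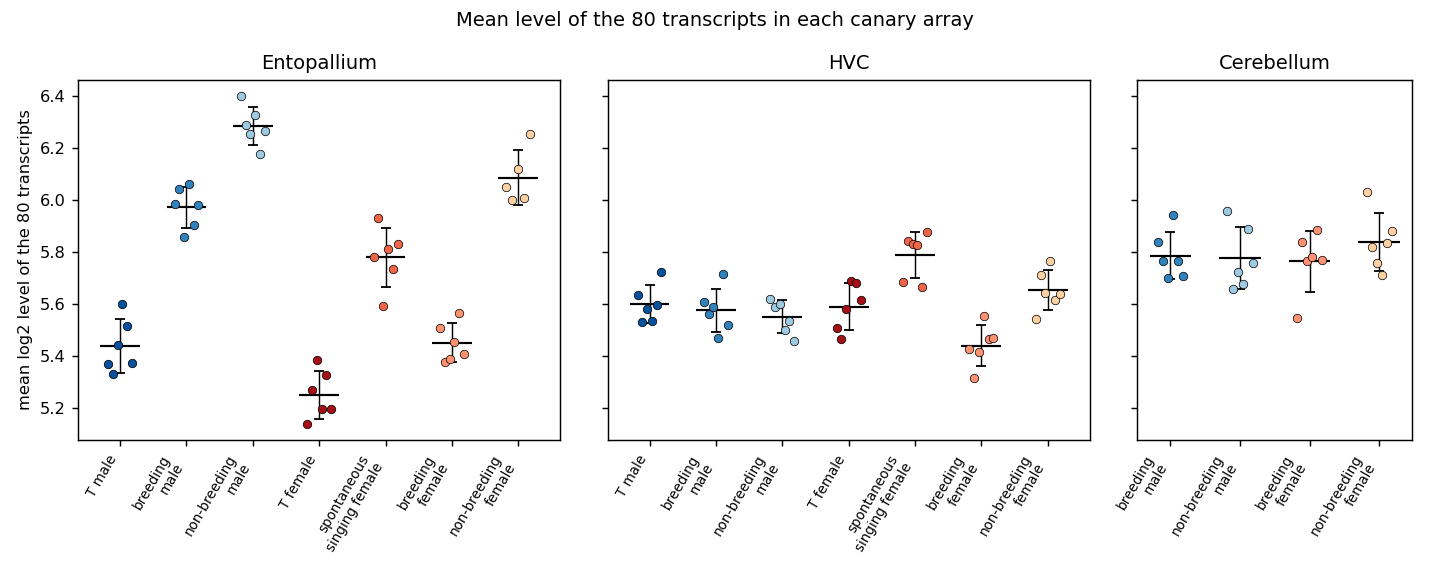
Mean log2 level of the 80 transcripts (vertical axis) in each canary array, by region and group. Points are single birds, horizontal lines group means and bars 1 SD, and T marks birds with a testosterone implant. In the entopallium implanted birds lie at 5.14 to 5.60, below every non-breeding, non-singing bird without an implant, a difference fixed by the selection, while breeding males lie above all breeding females and the HVC means lie closer together.

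The other canary groups took positions between or beside these 4 groups. The mean level over the 80 members was 5.25 ± 0.09 in implanted females and 5.45 ± 0.07 in breeding females, against 5.78 ± 0.11 in spontaneously singing females and 6.09 ± 0.11 in non-breeding, non-singing females (SD, n = 5 for the last group and 6 for the others). In males it was 5.44 ± 0.10 with testosterone, 5.97 ± 0.08 in breeding birds and 6.29 ± 0.07 in non-breeding birds without an implant (SD, n = 6 each). Breeding females overlapped with implanted females in this mean, whereas every breeding male lay above every implanted male.

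Breeding females minus non-breeding females gave a median of -0.60 over the members, with 73 of 80 below 0 and 45 at or below -0.5. For males the median was -0.30, with 65 members below 0 and 17 at or below -0.5, and for spontaneously singing females it was -0.20, with 58 below 0 and 25 at or below -0.5. These differences share their control arrays with the selection and are therefore not tested. The selection favours high levels in these controls, and no share of all transcripts is set beside the counts. They can therefore not be read as a trait of the members. Placed between the implanted and the non-implanted mean of its own sex, each member could be scored by the nearer end. Both ends of this scale come from the arrays of the selection, which favours widely spaced ends, so the scores are not tested either. In breeding females 58 members lay nearer to the implanted birds, compared with 32 in breeding males and 28 in spontaneously singing females. Weak signals stood higher on the arrays of the spontaneously singing females. The 1st percentile of log2 level was 3.22 to 3.43 on their entopallium arrays and 2.81 to 2.90 on those of the non-singing females, and the weakest 25% of transcripts differed by a median of 0.24 between these groups. The part of this shift in the values of the spontaneously singing females was not tested. In 25 members breeding birds of both sexes lay nearer to the implanted birds, in 33 only the females did, in 7 only the males did and in 15 neither sex did.

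**Figure D2:**
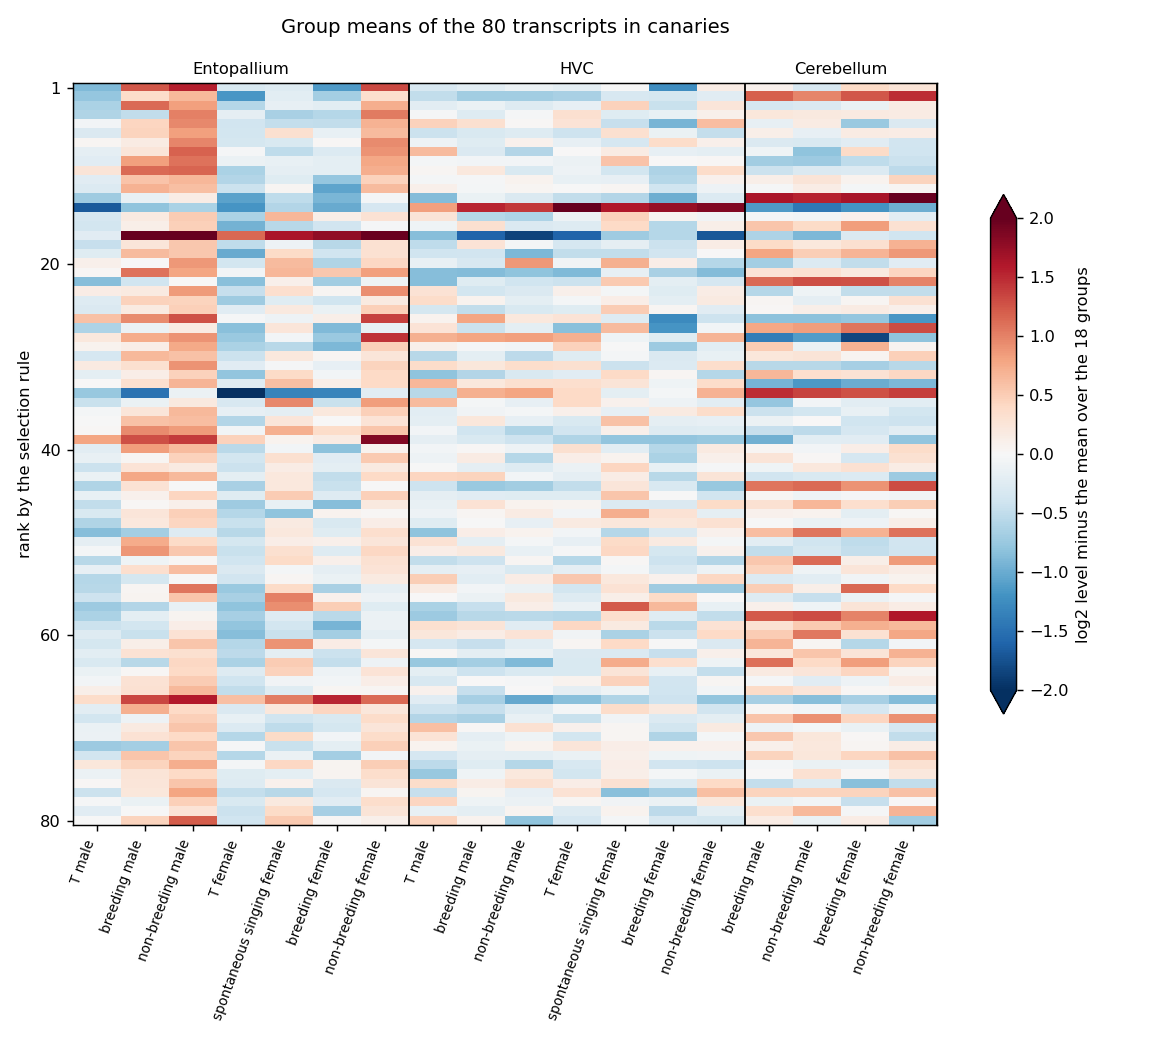
Group mean log2 level of each of the 80 transcripts (rows, in order of the selection rule) in the 18 canary groups (columns), minus the transcript's mean over these groups, with colours ending at -2 and 2. Implanted birds are low in the entopallium by the selection, and a few rows differ mainly between regions. In the entopallium breeding females lie nearer to the implanted than to the non-implanted birds in 58 rows. Both of these ends come from the arrays of the selection, so this count is not tested.

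The comparison of breeding males with breeding females in the entopallium used no array of the selection. The males sang and the females did not, so a sex difference here and in the other regions can also be one of singing. Here and below, a called transcript had a limma p-value under 0.05, after Benjamini-Hochberg adjustment over the 26061 transcripts, and differed by 0.5 or more on the log2 scale in either direction. On this basis 33 of the 80 members differed by sex, 32 higher in males and 1 higher in females. Over all transcripts 3.25% were called, 2.29% as higher in males and 0.955% as lower. Of the weakest 25% of transcripts by mean level, 2.64% were called higher. The median log2 fold change of the members was 0.51 (range -1.09 to 2.39), against -0.01 over all transcripts. While 41 members were at or above 0.5, the 95th percentile over all transcripts was 0.38. All 6 males lay above all 6 females in 12 members (6.51% of all transcripts). Of the 49 members among the lowest 25% by mean level over all arrays, 13 were called higher in males, as were 19 of the other 31. When the lowest 25% were left out before the fit, 19 of 33 members were called, all higher in males. The share of all transcripts called in that filtered fit was not counted.

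The largest difference was that of XM_002192196, the transcript with the lowest rule value, at 6.30, 7.32 and 7.54 in breeding males (lowest, median and highest) and 2.90, 5.18 and 5.96 in breeding females, with no overlap (log2 fold change 2.39, SE 0.49, limma adjusted p = 0.0031). XM_002194599 had the lowest adjusted p of these members. Its levels were 6.92, 7.20 and 7.39 in breeding males, against 5.60, 5.81 and 6.01 in breeding females. The groups did not overlap, and the log2 fold change was 1.35 (SE 0.10, limma adjusted p = 1.71e-06). Breeding females overlapped with implanted females (5.74, 6.03 and 6.20), and breeding males overlapped with non-breeding males without an implant (7.11, 7.24 and 7.48). XM_002198703 had 8.12, 8.31 and 8.78 in breeding males, against 6.36, 6.79 and 6.98 in breeding females, a log2 fold change of 1.65 (SE 0.13, limma adjusted p = 3.07e-06). The exception was ENSTGUT00000014494, which had 2.61, 3.24 and 3.64 in breeding males, against 3.77, 4.20 and 4.77 in breeding females (log2 fold change -1.09, SE 0.20, limma adjusted p = 0.0016). Its mean level in the canary entopallium was at percentile 2.42 of all transcripts. In the selection arrays its groups overlapped, with 2.34, 2.99 and 3.43 in implanted females and 2.96, 3.25 and 5.02 in females without an implant. In males they were 2.405, 2.94 and 3.78 with testosterone and 2.99, 3.15 and 5.59 without. The medians thus lay close together, and the highest bird without an implant stood well above its group median in each sex.

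**Figure D3:**
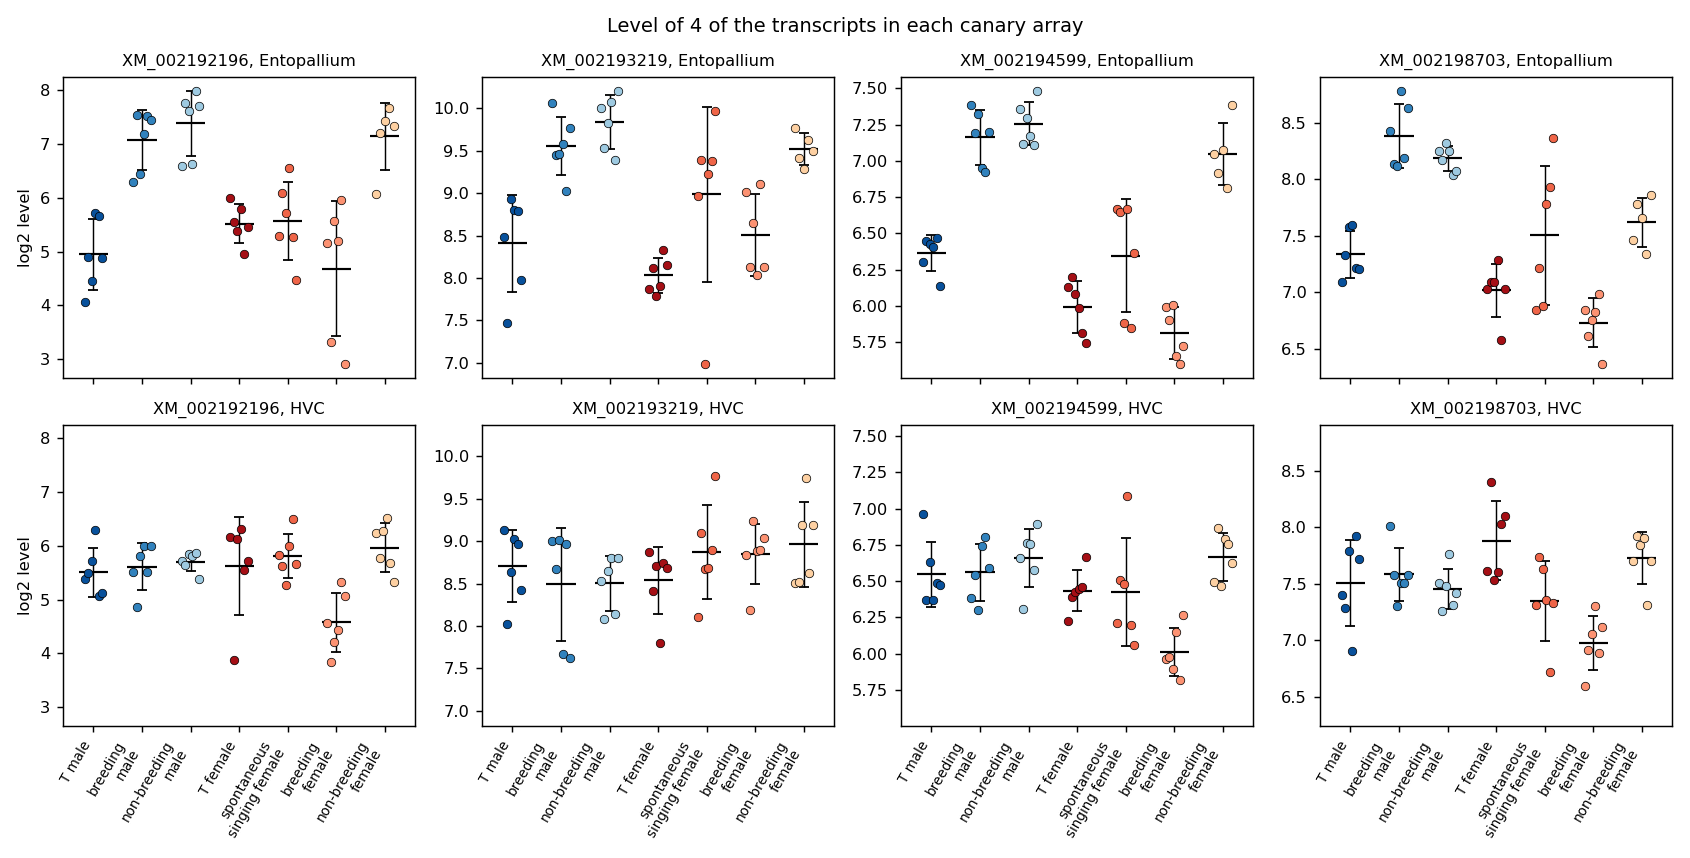
Log2 levels (vertical axes) of 4 transcripts in each array of canary entopallium (top) and HVC (bottom). Points are birds, lines means and bars 1 SD, and T marks implanted birds. The first pair had the lowest rule values, the other pair the lowest adjusted p among members higher in breeding male than in breeding female entopallium; in the HVC the implanted and non-implanted birds overlap in all 4.

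The same sex comparison was then made in the other regions, a choice made after the entopallium levels were seen. In HVC 22 members were called, 14 higher and 8 lower in breeding males than in breeding females (3.33% of all transcripts, 2.10% higher and 1.23% lower). The median of the members was 0.04. In the HVC XR_054016 had 8.86, 9.00 and 9.50 in breeding males, against 8.01, 8.22 and 8.45 in breeding females (log2 fold change 0.85, SE 0.10, limma adjusted p = 7.38e-05). Called higher in males in both regions were 10 members. The share of all transcripts called in both was not counted, and the breeding females were the same 6 birds in both regions. ENSTGUT00000014494 was again lower in males (log2 fold change -1.12, SE 0.17, limma adjusted p = 0.000493). In the cerebellum 1 member was called, higher in males (0.549% of all transcripts, 0.437% higher), and the median was 0.00. This was XM_002198252, at 3.29, 4.01 and 4.54 in breeding males, against 2.26, 2.74 and 3.13 in breeding females (log2 fold change 1.24, SE 0.20, limma adjusted p = 0.0053).

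The sex difference in the entopallium minus that in the HVC was tested as an interaction, also added after the levels were seen. It was called in 17 members, all with a more positive male minus female difference in the entopallium (1.46% of all transcripts were called, 0.883% in this direction). The median was 0.38, against -0.02 over all transcripts. Of these 17, 11 were also called higher in males within the entopallium, whose arrays enter both tests. The share of all transcripts called in both was not counted. Some of the 17 were instead called lower in males in the HVC and not called in the entopallium. Among them, the male minus female difference of XM_002190762 was -1.045 in the HVC and 0.43 in the entopallium. That of XM_002195938 was -0.615 in the HVC and 0.14 in the entopallium. For XM_002198703 the interaction was 1.05 (SE 0.19, limma adjusted p = 0.0023) and for XM_002194599 it was 0.80 (SE 0.14, limma adjusted p = 0.0022). The model treated arrays as independent, although breeding females contributed the same birds to both regions and breeding males did not.

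**Figure D4:**
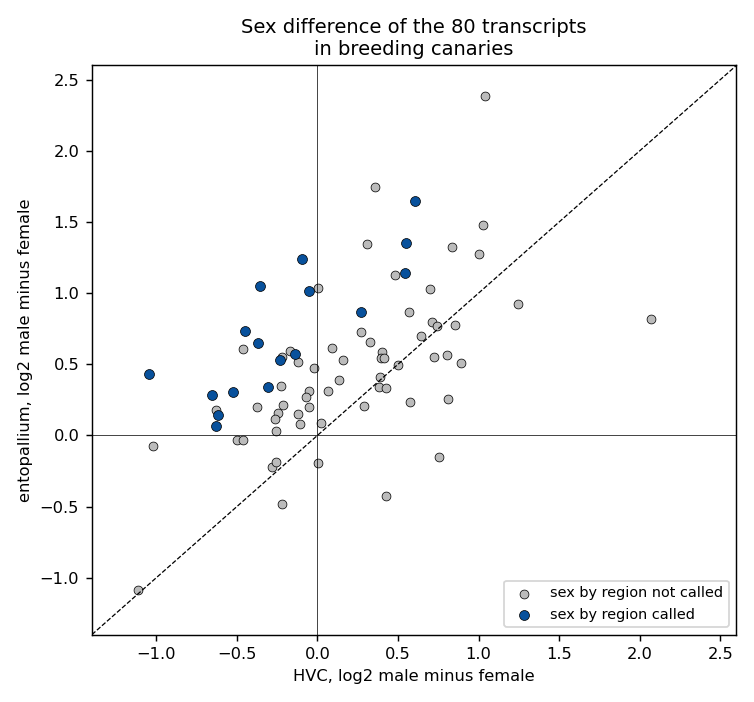
Male minus female log2 difference of each of the 80 transcripts in breeding canaries, in the HVC (horizontal) and the entopallium (vertical). The dashed line marks equal differences, and dark points are the 17 transcripts whose difference between regions was called. All 17 lie above the line.

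Implanted birds were next compared with birds without an implant in the HVC. No array of the selection entered this comparison, but by the labels 5 or 6 birds of each group had also given an entopallium array to it. The non-breeding birds were also the controls of the HVC comparisons below. Whether a bird's own level carried over between regions was not tested. The median SE of the members was 0.16 in females and 0.20 in males, against 0.06 and 0.09 over all transcripts. In females 0 of 80 were called in limma (1.15% of all transcripts), and 4 were lower by adjusted p alone. The share of all transcripts passing by adjusted p alone was not counted. An unadjusted limma p below 0.05 was found for 12 members and for 7245 of all 26061 transcripts. The median log2 fold change of the members was -0.08, with a range from -0.78 to 0.68, against a median of -0.02 over all transcripts. In males 7 members (8.75%) were called, 2 lower and 5 higher (1.19% of all transcripts, 0.491% lower and 0.695% higher), and the median was 0.04 (0.02 over all transcripts). The count in males fell to 4 without non-breeding male 4. The transcripts with the lowest rule values in the entopallium were not called here. The HVC log2 fold change of XM_002192196 was -0.34 (SE 0.36, limma adjusted p = 0.57) in females and -0.20 (SE 0.17, limma adjusted p = 0.49) in males. That of XM_002193219 was -0.42 (SE 0.23, limma adjusted p = 0.24) in females and 0.20 (SE 0.19, limma adjusted p = 0.52) in males.

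The member with the lowest adjusted p in males, XR_054754, a predicted non-coding RNA, was higher with the implant in HVC. Its levels there were 7.74, 8.11 and 8.20 in implanted males, against 7.37, 7.52 and 7.61 in males without an implant, with no overlap (log2 fold change 0.56, SE 0.08, limma adjusted p = 0.0081). In the entopallium, where it was chosen for being lower, it had 7.86, 8.16 and 8.40 with testosterone and 8.78, 8.96 and 9.24 without. XR_053957, another predicted non-coding RNA, had 8.81, 9.10 and 9.86 in HVC of implanted males, against 8.26, 8.45 and 8.50 in males without an implant (log2 fold change 0.79, SE 0.15, limma adjusted p = 0.015). XM_002189569 was lower, with 5.76, 6.59 and 6.85 in implanted males, against 7.26, 7.33 and 7.54 in males without an implant (log2 fold change -0.97, SE 0.18, limma adjusted p = 0.014). XR_054016 was also lower in HVC, by -0.58 on the log2 scale (SE 0.14, limma adjusted p = 0.029), but its groups overlapped (7.93, 8.21 and 8.91 with testosterone, 8.84, 8.88 and 9.07 without) and the call was lost without each of 9 single birds.

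Whether the HVC response differed by sex was tested as males minus females. The interaction was called in 8 members, all more positive in males (2.03% of all transcripts, 0.760% in this direction). For XR_054754 it was 0.69 (SE 0.11, limma adjusted p = 0.0013), the female levels being 7.56, 7.73 and 7.93 with testosterone and 7.71, 7.91 and 7.98 without. For ENSTGUT00000011379 it was 0.77 (SE 0.17, limma adjusted p = 0.0092). The count was 3 without implanted female 2 and 4 without non-breeding male 2. Without other single birds it was between 5 and 10.

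**Figure D5:**
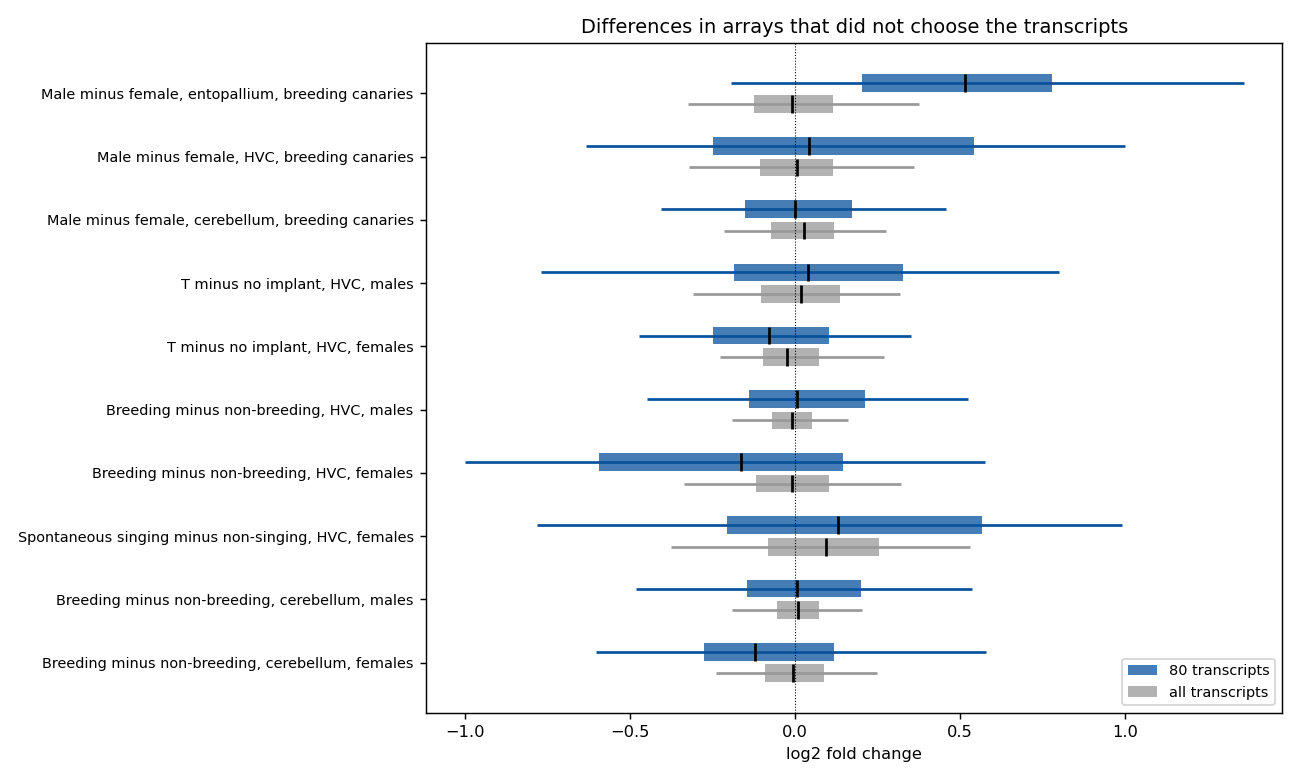
Log2 fold changes of the 80 transcripts (dark) and of all transcripts (grey) in comparisons that used no selection array. In the HVC, the implanted birds and the non-breeding controls were largely birds of the selection. Bars span the quartiles, thin lines the 5th to 95th percentiles and black ticks mark the medians. The median of the 80 transcripts is 0.51 for breeding males minus breeding females in the entopallium and between -0.16 and 0.13 in the other 9 comparisons shown. Among those not shown, it is 0.38 for sex by region in breeding canaries and 0.23 for breeding season by sex in the HVC. For region in breeding canaries, also not shown, it is -0.20.

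Breeding females differed from non-breeding, non-singing females in the HVC in 20 members, 16 lower and 4 higher (2.71% of all transcripts, 1.53% lower and 1.18% higher), with a median of -0.16. Every breeding female was below every non-breeding female in 13 members (6.61% of all transcripts). ENSTGUT00000005111, at percentile 91.6 by mean level in the canary entopallium, had 8.37, 8.56 and 8.93 in breeding females, against 9.50, 9.62 and 9.67 in non-breeding females (log2 fold change -0.99, SE 0.09, limma adjusted p = 2.45e-05). XM_002198674 had 7.42, 7.62 and 7.81 in breeding females, against 8.16, 8.26 and 8.46 in non-breeding females (log2 fold change -0.66, SE 0.07, limma adjusted p = 4.04e-05). Of the members that were higher, ENSTGUT00000014494 had the lowest adjusted p (log2 fold change 0.80, SE 0.12, limma adjusted p = 0.00034), followed by XM_002191416 (log2 fold change 0.61, SE 0.10, limma adjusted p = 0.00078).

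In the HVC of males 0 members were called between breeding and non-breeding birds in limma (0.0192% of all transcripts). An unadjusted p below 0.05 was found for 16 members and for 2684 of all 26061 transcripts. The difference between the sexes in this contrast, males minus females, was added after the values were seen. It was called in 17 members, 12 more positive and 5 more negative in males (2.93% of all transcripts, 1.53% more positive and 1.40% more negative). ENSTGUT00000005111 had the lowest adjusted p among them, with a difference of 1.51 (SE 0.21, limma adjusted p = 5.19e-05). Its male levels were 8.91, 9.56 and 9.75 in breeding birds and 8.30, 8.97 and 9.31 in non-breeding birds. Of the 16 members lower in breeding females, 10 were also called higher in males than in females in the breeding HVC. Both comparisons use the breeding female arrays, and the share of all transcripts called in both was not counted.

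Spontaneously singing females differed from non-singing females in the HVC in 23 members, 18 higher and 5 lower (7.80% of all transcripts, 5.71% higher and 2.10% lower). Without the weakest 25% of transcripts 10 of 34 members were called, 6 higher and 4 lower. The share of all transcripts called without the weakest 25% was not counted. The raised low end of these birds' arrays was also present in the HVC. The 1st percentile of log2 level was 3.18 to 3.43 on their 12 HVC and entopallium arrays and at most 3.10 on every other array, and 14.7% of the lowest 25% of transcripts were called higher, with a median of 0.28. As most members belong to these weak transcripts, the part of this shift in the 18 higher members was not tested. Of the higher members, ENSTGUT00000014494 had 4.30, 4.99 and 5.46 in spontaneously singing females, against 3.42, 3.59 and 3.89 in non-singing females (log2 fold change 1.37, SE 0.18, limma adjusted p = 0.0001). XM_002190761 had 6.02, 6.65 and 6.80 in spontaneously singing females, against 5.54, 5.69 and 5.92 in non-singing females (log2 fold change 0.83, SE 0.12, limma adjusted p = 0.00024). In neither did the groups overlap. Of the 5 lower members, ENSTGUT00000011554 had 6.23, 6.45 and 7.06 in spontaneously singing females, against 7.35, 8.10 and 8.35 in non-singing females (log2 fold change -1.44, SE 0.18, limma adjusted p = 0.0001). ENSTGUT00000001597 had 6.62, 7.02 and 7.25 in spontaneously singing females and 7.65, 8.04 and 8.33 in non-singing females (log2 fold change -1.04, SE 0.13, limma adjusted p = 0.0001).

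In the cerebellum hardly any transcript was called between breeding and non-breeding birds, among the members or over all transcripts. In limma 0 members were called in males (0.0115% of all transcripts). An unadjusted p below 0.05 was found there for 9 members and for 2102 of all 26061 transcripts. In females 1 member was called, lower in breeding birds (0.138% of all transcripts, 0.0691% lower). This was XM_002190761, with 6.93, 7.15 and 7.47 in breeding females, against 7.46, 7.85 and 8.04 in non-breeding females (log2 fold change -0.60, SE 0.11, limma adjusted p = 0.039). The cerebellum of implanted birds was not analysed here.

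Between regions of breeding canaries, 16 members were called, 13 lower and 3 higher in HVC than in entopallium (12.5% of all transcripts, 6.44% lower and 6.07% higher). This fit treated arrays as independent, although both regions of the breeding females came from the same 6 birds. The median over the members was -0.35 in males and 0.01 in females, and the interaction above is the test of this difference between the sexes. XM_002190762 was lower in HVC by -3.07 on the log2 scale (SE 0.21, limma adjusted p = 1.94e-12). In males it had 6.33, 7.20 and 7.46 in HVC, against 10.39, 10.76 and 11.55 in entopallium. In females it had 7.70, 8.18 and 8.49 in HVC, against 10.14, 10.37 and 10.86 in entopallium. XR_053957 was lower in HVC by -1.97 (SE 0.08, limma adjusted p = 1.10e-16). XM_002187962 had the opposite pattern and was higher in HVC by 2.54 (SE 0.18, limma adjusted p = 7.65e-12), with 5.85, 6.34 and 7.16 in HVC of breeding males, against 3.47, 4.09 and 4.92 in their entopallium. The list thus holds transcripts that are abundant in the entopallium as well as transcripts near the lower end of its range there.

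In the other species no member was called for sex in the entopallium, where few of all transcripts were called either. With so few called, a count of 0 members cannot be told from the share of all transcripts. Whether the sex difference of the members differed between canaries and these species was not tested. In forest weavers 0 members were called in limma (0.929% of all transcripts), 1 passed the adjusted p alone, and the median was -0.08. An unadjusted p below 0.05 was found for 9 members and for 2422 of all 26061 transcripts. In cordon-bleus 0 were called (1.03% of all transcripts), 0 passed the adjusted p alone, and the median was 0.05. An unadjusted p below 0.05 was found for 4 members and for 1364 of all 26061 transcripts. Between HVC and entopallium 14 members were called in forest weavers, 8 lower and 6 higher in HVC (12.2% of all transcripts, 5.71% lower and 6.50% higher), and 12 in cordon-bleus, 6 in each direction (16.4% of all transcripts, 8.09% lower and 8.27% higher). The members' shares, 17.5% in forest weavers and 15% in cordon-bleus, were near those backgrounds. The region fits treated arrays as independent, although by identical labels some birds gave both regions. Such birds were 4 male and 2 female forest weavers, and 6 male and 4 female cordon-bleus. More female forest weavers may have given both regions, as some of their HVC labels match an entopallium label apart from a suffix. Implanted or non-breeding birds of these species were not analysed here, and levels were not compared between species.

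Between birds of the same group, the members correlated little with each other, and a smaller share of their pairs was above 0.5 than over all transcripts. Over the 18 canary entopallium arrays that the selection did not use, after removal of the group means, the median correlation of 3160 member pairs was 0.03, and 4.56% of pairs were above 0.5. Over all pairs of transcripts, which were not matched to the members for level, the median was 0.02, and 8.87% were above 0.5. Across the 42 canary HVC arrays, the transcripts outside the list whose level was most similar to the mean of the members were AK127529 (Pearson's r = 0.75) and ENSTGUT00000017684 (r = 0.74); these arrays share group differences and the raised low end of the spontaneously singing females.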

How the data were processed

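The authors deposited 1 table of log2 transcript levels for 26061 transcripts on 155 arrays, normalised between arrays; per the labels they used Affymetrix Expression Console, with version and settings not stated. Tissue was dissected from cryosections, with 1 bird per array. One label states no treatment for every sample; the implant was taken from the other labels. All 6 HVC arrays labelled as non-breeding, non-singing females were used, 1 more than the study lists for these HVC controls; which array is the additional one was not stated. Array medians ranged from 7.13 to 7.45, and 0 of 385 pairs of arrays within a group were identical. No array batch was stated.

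The members and comparisons were chosen with earlier results of these data known. Groups were compared on the deposited log2 values with limma 3.58.1 in R 4.3.3, with 2-group fits or an interaction, or with region and sex as terms, and with Benjamini-Hochberg adjustment over all transcripts. The code was tested on simulated data. p-values measure the spread between birds, apart from the region fits and the sex by region interaction. Those treated arrays of the same bird as independent. Calls needed an adjusted p under 0.05 and a log2 difference of 0.5 or more. As identifiers had no gene names, those named were the 2 with the lowest rule values and, per tested comparison, up to 2 per direction with the lowest adjusted p. Precision is limited by the number of arrays. Alternatives were between-array scaling, a filter on the lowest 25% of transcripts, limma with trend and robust fits, blocks for replicate number or bird, a model over all canary HVC groups, adjusted p alone and leaving out each array. Birds of 2 compared groups were not paired by replicate number in the main fits. In no 2-group comparison did every pair of equally numbered arrays correlate above 0.1, which cannot exclude that some birds were paired. Between regions, equal numbers could mark the same bird. In breeding females they did so in all 6 pairs of HVC and entopallium arrays, of which 5 correlated above 0.1.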

Additional observations from a re-analysis of the deposited data

Results flagged for a closer look

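Of 109 groups of member levels checked, 8 held a bird far from the others of its group, and chance alone flags about 1 in 20 groups. In the groups of the selection, the only single transcripts checked were the 2 with the lowest rule values. For the mean level of the 80 members this was a breeding female in the cerebellum at 5.55, below the other 5. For XM_002192196 it was a non-breeding female without an implant in the entopallium at 6.07, for ENSTGUT00000014366 a breeding female in the entopallium at 2.34 and for XR_054754 an implanted male in the HVC at 7.74, all at the low end. In the HVC of non-breeding males, 1 bird was low for XR_053957 at 8.26 and 1 was high for XM_002195938 at 8.57. In the HVC of breeding males, 1 bird was low for XM_002190762 at 6.33 and 1 was high for XR_054016 at 9.50.

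Differences in an effect between groups were called by a limma interaction in 8 members for testosterone in the HVC of males minus females, in 17 members for sex in the entopallium minus the HVC of breeding canaries, and in 17 members for breeding season in the HVC of males minus females.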

How the results depend on the processing

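The number of members called moved by more than 1.5 times under the following settings. Leaving out the 25% of transcripts with the lowest level, which removes most members from the fit, gave 19 called for sex in the entopallium (33 without the filter), 10 for spontaneous singing in HVC (23), 10 for breeding females in HVC (20), 9 for sex in HVC (22), 0 for sex in the cerebellum (1), 8 for breeding season by sex in HVC (17) and 5 for region in breeding canaries (16). Members taken out by the filter cannot be called, so these counts could fall by that removal alone. The share of all transcripts called with the filter was not counted. When the selection was repeated with the filter, 31 of the 80 members were kept. That number was fixed in advance, as the filter takes out the 49 members among the weakest transcripts and leaves the rule values unchanged. By adjusted p alone, the counts were 4 for testosterone in HVC of females (0 with the fold criterion), 31 for breeding females in HVC, 2 for breeding females in the cerebellum (1), 1 for sex in forest weaver entopallium (0), 30 for region in breeding canaries and 23 for region in cordon-bleus (12). The share of all transcripts passing by adjusted p alone was counted for none of these. With the replicate block, although birds shared only a number (correlations of -0.47 to 0.45 between equally numbered birds of the groups compared), testosterone in HVC gave 1 in females and 0 in males (7 without), and breeding females in the cerebellum gave 0; the calls of all 4 transcripts named for testosterone in HVC of males were lost, with adjusted p between 0.059 and 0.093. A model over the 7 canary HVC groups gave 11 for testosterone in males. The share of all transcripts called was also not counted for the block, for this model or with single arrays left out.

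With each array left out in turn, the counts ranged from 0 to 2 (testosterone in HVC, females), 4 to 10 (males), 3 to 10 (interaction), 19 to 25 (breeding females in HVC) and 26 to 34 (sex in the entopallium, breeding canaries), and 68 to 74 members were selected again. XR_054016 in HVC of males lost its call without each of 9 single birds. Of the other values of named transcripts, 313 kept their direction and call and 0 reversed. Scaling to equal total intensity shifted arrays by up to 0.13 and kept 78 members, and selection by the mean of both differences kept 54. The causes were not tested. The 6 birds per group and the weak signal of most members limit what could be detected.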
